A study of Mus musculus with 162 samples.

Results

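The 10 genes described here, of 53686 genes in the deposited count table, are the core of the circadian clock: Arntl, Clock, Npas2, Per1, Per2, Per3, Cry1, Cry2, Nr1d1 and Nr1d2. They were chosen by name, as the transcription factors and repressors that make up the oscillator, and not by their measured values. RNA was sequenced from 9 organs of 18 adult male C57BL/6J mice, kept in groups, after 0, 2, 8, 12, 18 or 22 h without food, with 3 mice at each time. The organs were the olfactory bulb (OB), the brain as telencephalon and diencephalon (BRN), the cerebellum (CBL), the brainstem (BST), the stomach (STM), the liver (LIV), the brown fat between the shoulder blades (iBAT), the white fat around the gonads (pgWAT) and the white fat under the skin of the hindquarters (psWAT). Each mouse gave all 9 organs. The labels number the replicates within each organ and time, and equal numbers at a time were taken as the same mouse. All mice were killed at the same time of day, soon after the lights went off, so that fasts of different length began at different hours. Mice at 0 h were fed ad libitum, those at 8 h and 12 h lacked food mostly in the light phase, and those at 18 h and 22 h also lacked it for part of the preceding night. The study asked how gene expression in each organ changes along a short fast. Libraries of 0 h and 2 h are called fed below, those of 8 h and 12 h daytime fast, and those of 18 h and 22 h late fast. With the hour of death fixed, these data hold 1 phase of the daily cycle, and a shift of phase cannot be told apart from a change in level at that phase.

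The clock is a loop of transcription and repression. Arntl (BMAL1) pairs with Clock or with its paralog Npas2 and activates the Per and Cry genes, whose proteins return to the nucleus and inhibit that activation. The same activators drive Nr1d1 and Nr1d2 (REV-ERBα and REV-ERBβ), nuclear receptors that repress Arntl. The master pacemaker lies in the suprachiasmatic nucleus of the hypothalamus, which BRN includes, and feeding time is known to set the clocks of liver, stomach and fat.

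All libraries were retained except 5 that the study had left out (in BRN the third mouse of 8 h and the first of 18 h, in STM the third of 12 h, and at 22 h the first of iBAT and the second of psWAT), which held 130701 to 4590060 counts. The retained totals ran from 3045845 to 27801717 counts with a median of 8735554. A floor of 3 counts in the shallowest library of an organ equals 0.365 CPM (counts scaled to the total of the library) in OB and up to 0.985 CPM in BRN, with 0.951 CPM in iBAT. These floors cover counting error only. The 3 CBL libraries of 0 h held 20396385 to 22071004 counts, more than those of any other CBL time, the highest of which held 9487976. Levels are given as normalized CPM, the CPM with the library total scaled by its TMM factor.

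Several libraries stood apart. BRN 18 h replicate 2, BRN 2 h replicate 3, pgWAT 22 h replicate 2 and psWAT 12 h replicate 3 were known from earlier work on these data to lie nearest to libraries of another organ. In psWAT 12 h replicate 3 the 4 cerebellar markers summed to 2792 CPM, with Cbln3 at 1105 CPM, and the 4 neuronal markers to 3492 CPM, with Snap25 at 2717 CPM. In pgWAT 22 h replicate 2 the 4 adipocyte markers summed to 1260 CPM, against at least 8674 CPM in the other pgWAT libraries. In BRN 18 h replicate 2 the 4 neuronal markers summed to 2067 CPM, and in the other BRN libraries to between 2672 and 3984 CPM. Mouse 3 of 0 h stood apart in the clock genes themselves. In all 5 non-nervous organs it had the lowest level of the 3 mice of 0 h in Per1, Nr1d1 and Nr1d2 and the highest in Arntl. Nr1d2 was lowest in its nervous organs too, and Arntl was highest in OB and BRN and lowest in CBL. Per1 was highest in OB, BRN and CBL and lowest in BST, and Nr1d1 was highest in OB and BRN and lowest in CBL and BST.

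The organ labels were checked against 4 markers each, all of which were detected in every retained library of every organ but pgWAT and psWAT. Their summed level was 997 to 1260 CPM in OB (most abundant gene Cdhr1), 206 to 368 CPM in BRN (Lamp5), 3522 to 4368 CPM in CBL (Cbln3), 368 to 659 CPM in BST (Slc6a5), 10785 to 101508 CPM in STM (Gkn1 or Tff1), 68722 to 92254 CPM in LIV (Alb) and 3953 to 10564 CPM in iBAT (Ucp1). The forebrain list did not separate BRN from BST, where it summed to 224 to 366 CPM through Lamp5. The 4 adipocyte markers summed to 2653 to 4785 CPM in iBAT, 1260 to 16360 CPM in pgWAT and 102.5 to 9078 CPM in psWAT. psWAT also held skeletal muscle markers at 10.2 to 26489 CPM and macrophage markers at 316.9 to 2237 CPM, so that its libraries were mixtures of unequal composition. Markers of a further cell type, not given here, also varied widely in psWAT. In such bulk samples fewer cells of a type and less RNA per cell cannot be told apart. The 4 markers of the suprachiasmatic nucleus (Vip, Avp, Nms and Prok2) summed to 39.1 to 104.4 CPM in BRN, where Vip was the most abundant in 12 libraries and Avp in 4. Nms was at 0 in 9 of those 16 libraries and Prok2 in 8. The same list summed to 34.7 to 49.2 CPM in OB and 9.09 to 31.6 CPM in STM, so that it did not fully separate BRN from OB.

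Some gene models overlap. The 3′ end of Nr1d1 (chr11:98767932-98775333, GRCm38, minus strand) shares 1075 bases with Thra on the opposite strand, whose mean level reached 777 CPM in BRN. Per3 (chr4:151003652-151044665, minus strand) lies whole within the locus of Camta1 on the same strand, which averaged up to 399 CPM in BST. The pseudogene Ube2n-ps1, at up to 53.4 CPM in BST, lies within Clock (chr5:76209868-76304792, minus strand) on the same strand. The strand setting of the counting was not stated, and the share of counts that such overlaps touch was not tested. Arntl lies at chr7:113207465-113314126 (plus strand), Npas2 at chr1:39193731-39363236 (plus), Per1 at chr11:69095217-69109960 (plus) and Per2 at chr1:91415982-91459324 (minus). Cry1 lies at chr10:85131700-85185064 (minus), Cry2 at chr2:92403646-92434043 (minus) and Nr1d2 at chr14:18204054-18239127 (minus).

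Each organ had its own balance of clock transcripts. Compared per kilobase of exon, on factors common to all organs, Nr1d2 led in CBL, BST and the 3 fat depots, Nr1d1 in OB and STM, Cry2 in BRN and Per2 in LIV. Arntl or Npas2 stood lowest of the 10 in every organ. Arntl stood below every Per, Cry and REV-ERB gene in all 9 organs, and Clock did not, as it exceeded Per2 and Per3 in OB and BST. In CBL the mean level was 4.21 CPM per kb for Arntl (SD 0.407, n = 18 mice) and 45.1 CPM per kb for Nr1d2 (SD 2.44).

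Among the activators, Arntl was highest in CBL and lowest in iBAT, at 0.589 CPM per kb (SD 0.404, n = 17), a ratio of 7.14 between the organ means. From OB (2.72) through BRN (2.43), BST (1.66), psWAT (1.51), LIV (1.25), STM (0.801) and pgWAT (0.636) down to iBAT, the CPM per kb of neighbouring organs differed by less than their spread over mice. Clock was the most even activator, from 6.32 CPM per kb in CBL (SD 0.477) to 2.58 in psWAT (SD 0.549), and 7 of its 8 steps between neighbours lay within the spread. Npas2, which is known for its expression in the forebrain, averaged 4.66 CPM per kb in BRN (SD 1.67, n = 16), 2.50 in OB (SD 0.333), 0.994 in BST and 0.596 in CBL. It reached 0.820 CPM per kb in STM (SD 0.324, n = 17), but 0.110 in pgWAT, 0.0919 in psWAT, 0.0293 in iBAT and 0.0150 in LIV, the last 3 of which did not pass the filter on low counts. The steps from BRN to OB and from OB to BST exceeded the spread. In LIV, 14 of 18 libraries held no Npas2 count at all.

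Among the repressors, Per2 was the liver's leading clock transcript, with 36.99 CPM per kb (SD 11.8, n = 18), beyond the spread of iBAT in second place at 14.9 (SD 5.62, n = 17), and it was lowest in BST at 3.77. Per1 was also highest in LIV, at 28.1 CPM per kb (SD 10.0), but its order down to CBL (16.1) stayed within the spread. Only the step from CBL to psWAT (9.47) exceeded it. Per3 was highest in iBAT, at 16.6 CPM per kb (SD 6.32), then in pgWAT (11.0) and LIV (10.5), and lowest in BST (3.56). Cry1 was highest in CBL, at 17.6 CPM per kb (SD 1.85, n = 18), a step beyond the spread above LIV (11.0), and lowest in pgWAT (4.51). Cry2 was highest in OB (23.2, SD 1.67), BRN (22.5, SD 2.89) and CBL (18.6, SD 2.23) and lowest in psWAT (6.34, SD 3.60).

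Nr1d1 averaged 30.4 CPM per kb in CBL (SD 5.79) and 30.3 in OB (SD 3.34), and 8.38 in psWAT (SD 5.56, n = 17). None of its 8 steps between neighbouring organs exceeded the spread, a comparison made without a test. Nr1d2 stood at 45.1 CPM per kb in CBL, beyond the spread of BST in second place (34.1, SD 2.24), and at 16.5 in BRN (SD 4.20, n = 16).

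**Figure D1:**
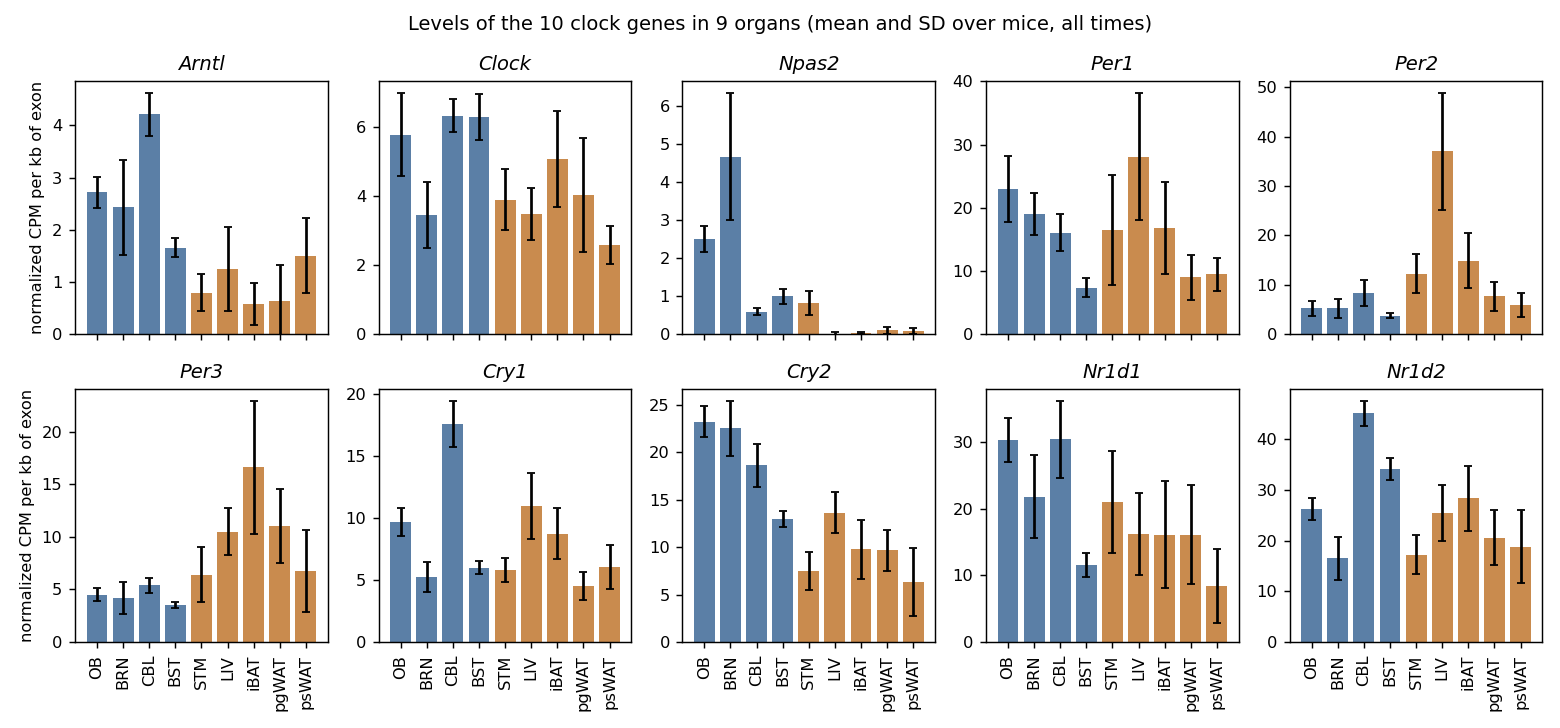
Mean level of each of the 10 clock genes in the 9 organs, as normalized CPM per kilobase of exon on the vertical axis of each panel; bars are means and error lines SDs over the 16 to 18 retained libraries of an organ, with nervous organs in blue and the others in orange. Npas2 is high in BRN and OB and near 0 in LIV, Per2 is highest in LIV, and Arntl, Cry1, Nr1d1 and Nr1d2 are highest in CBL.

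A test of the mean of the 5 non-nervous organs (STM, LIV, iBAT, pgWAT and psWAT) minus that of the 4 nervous organs (OB, BRN, CBL and BST), with the animal as a block, put 9 of the 10 genes past an adjusted p of 0.05. So did 89.5% of all 19538 genes tested. Per2 was higher outside the nervous system, by 1.21 on the log2 scale (SE 0.0749, adjusted p = 4.33e-33), and so was Per3, by 1.12 (SE 0.0803, adjusted p = 1.39e-27). The other 7 were lower there: Npas2 by a log2 difference of -4.23, Arntl -1.67, Cry2 -1.08, Nr1d1 -0.62, Clock -0.51, Nr1d2 -0.42 and Cry1 -0.32. Per1 differed by -0.10 (SE 0.0735, adjusted p = 0.196) and was not called. The means hide single organs: Cry1 was lower in BRN and BST than in LIV and iBAT.

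The late fast was compared with the fed state within each organ, to ask which clock genes differ once a fast has taken in part of the night. The 10 genes gave 87 pairs of gene and organ that passed the filter on low counts, of 90, since Npas2 was not kept in LIV, iBAT or psWAT. Of these pairs 10 were called at an adjusted p under 0.05 (edgeR quasi-likelihood test, Benjamini-Hochberg over all genes of the organ), 4 of them higher and 6 lower after the late fast. STM and iBAT held 7 of the 10. They were also the organs with the highest shares of all genes called, 22.8% in STM and 36.02% in iBAT. The directions were opposite: Per1, Per3 and Cry2 rose in STM, and Arntl, Clock, Per2 and Cry2 fell in iBAT. The other 3 were Clock in LIV, Nr1d1 in BRN and Cry2 in OB.

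**Figure D2:**
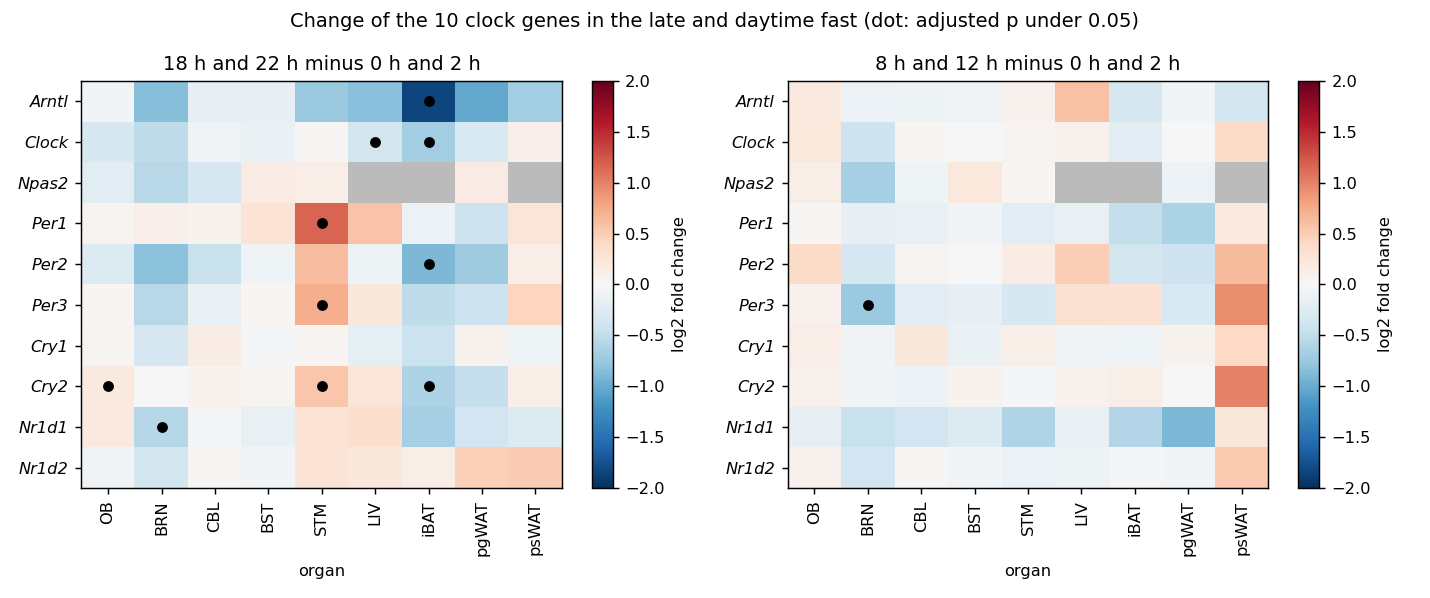
Heat maps of the log2 fold change of each clock gene (down) in each organ (across), late fast minus fed and daytime fast minus fed, on the color scale shown; a dot marks an adjusted p under 0.05 and grey a gene not kept by the filter. The late fast has 10 dots, red in STM and OB and blue in iBAT, LIV and BRN, and the daytime fast has 1, Per3 in BRN.

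Arntl, the activator without which the loop stops, had its largest change in iBAT. Its fed levels there were 3.56, 2.89 and 8.64 CPM at 0 h and 1.65, 4.15 and 4.68 CPM at 2 h. In the late fast they were 1.82, 2.33 and 1.96 CPM at 18 h and 0 and 1.00 CPM at 22 h. All 5 late libraries lay below 5 of the 6 fed ones, and the groups overlapped through 1 library of 2 h. Arntl fell by 1.84 on the log2 scale (SE 0.449, adjusted p = 0.00539). The library at 0 CPM had 3156101 counts, the fewest of the organ, and the floor there was 0.951 CPM. Leaving out 1 library at a time moved the log2 fold change between -2.01 and -1.52 in 16 cases, with the call kept in each. Without iBAT 22 h replicate 3 the fitted value was -4.83. The library at 0 CPM then stands alone for 22 h, so that the size of the change cannot be read from it. With 18 h alone as the late group it was -1.04 (adjusted p = 0.639).

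In the other organs Arntl was not called in the late fast. The log2 fold change was negative in all 9 organs, from -0.06 in OB (SE 0.0700, adjusted p = 0.619) to -1.02 in pgWAT outside iBAT (SE 0.584, adjusted p = 0.332). In LIV the 3 mice of 18 h had 0.825, 1.25 and 3.05 CPM and those of 22 h 4.87, 4.85 and 5.65 CPM, and the fed mice ran from 2.03 to 12.1 CPM with a median of 4.66. The 18 h libraries were low and the 22 h libraries sat in the middle of the fed range. The log2 fold change was -0.84 in LIV (SE 0.418, adjusted p = 0.190), -0.85 in BRN (SE 0.310, adjusted p = 0.0919) and -0.74 in STM (SE 0.315, adjusted p = 0.0995). Without BRN 18 h replicate 3 or without BRN 22 h replicate 3 the BRN difference was called, and without STM 18 h replicate 2 that of STM was (-1.02, adjusted p = 0.0238).

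Clock, the histone acetyltransferase partner of Arntl, fell in 2 organs. In iBAT its fed levels ran from 49.95 to 74.9 CPM (median 54.8), and its late levels were 46.1, 52.2 and 48.5 CPM at 18 h and 21.98 and 31.5 CPM at 22 h. Of the 5 late libraries 4 lay below every fed one. Clock fell by 0.69 on the log2 scale (SE 0.190, adjusted p = 0.0102). With offsets that take out the trend of CPM with transcript length it was 0.09 (adjusted p = 0.746), on the other side of 0. The call was also lost with 0 h alone as fed (-0.57, adjusted p = 0.0734), with 18 h alone as late (-0.26, adjusted p = 0.773), with the library number series as a covariate (-0.58, adjusted p = 0.0631) and without iBAT 22 h replicate 2 (adjusted p = 0.0625).

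In LIV, Clock was at 20.9, 17.8 and 19.5 CPM at 18 h and at 27.4, 27.8 and 32.5 CPM at 22 h, and its fed levels ran from 24.1 to 36.002 CPM with a median of 32.5. The 3 libraries of 18 h lay below all 6 fed ones, and those of 22 h among them. Clock fell by 0.37 on the log2 scale in LIV (SE 0.109, adjusted p = 0.0260), with -0.66 for 18 h alone (adjusted p = 0.00418) and -0.08 for 22 h alone (adjusted p = 0.789). The call was lost without any one of LIV 0 h replicate 3, 2 h replicate 2, 22 h replicate 1 and 22 h replicate 2, with adjusted p up to 0.0642. In OB, where Clock was at 55.3, 70.3 and 74.4 CPM at 18 h and at 71.1, 92.7 and 92.4 CPM at 22 h against 75.8 to 108 CPM in fed mice, the log2 fold change was -0.32 (SE 0.0935, adjusted p = 0.0544). All 3 libraries of 18 h were below the lowest fed one, and 2 of the 3 of 22 h lay within the fed range.

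Npas2 was not called in the late fast in any of the 6 organs where it was tested, by edgeR or by DESeq2, with 3 of them at an unadjusted p under 0.05. In BRN, where it is most abundant, fed levels ran from 28.2 to 37.96 CPM and late levels were 22.5, 30.3, 15.8, 15.1 and 21.2 CPM, so that 4 of 5 late libraries were below every fed one. The log2 fold change there was -0.55 (SE 0.237, adjusted p = 0.146).

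Per1, an immediate repressor that also answers to glucocorticoids, had the largest rise, in STM. Fed levels were 50.5, 67.3 and 12.8 CPM at 0 h and 66.0, 92.9 and 63.7 CPM at 2 h. Late levels were 164.9, 86.7 and 147.2 CPM at 18 h and 112.8, 114.7 and 145.3 CPM at 22 h. All but 1 of the 6 late libraries lay above every fed library, and the low fed value of 12.8 CPM was that of mouse 3. Per1 rose by 1.17 on the log2 scale (SE 0.287, adjusted p = 0.0103), and by 0.97 to 1.41 without any 1 library, with the call kept in 17 of 17. In the other 8 organs it ran from -0.42 in pgWAT (SE 0.272, adjusted p = 0.388) to 0.57 in LIV (SE 0.265, adjusted p = 0.167), with none called. In LIV late levels ran from 98.7 to 186.6 CPM (median 111.5) and fed levels from 34.5 to 112.05 CPM (median 92.8), with 3 of 6 late libraries above all fed ones.

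Per3, a paralog whose loss leaves the rhythm of mice largely intact, also rose in STM. Its fed levels ran from 17.6 to 65.4 CPM (median 48.1) and its late levels from 61.2 to 93.9 CPM (median 72.1). The groups overlapped, with 3 of 6 late libraries above every fed one. The rise was 0.73 on the log2 scale (SE 0.227, adjusted p = 0.0301), and it was called without any 1 of 11 libraries. It was not called without STM 0 h replicate 1, 2 h replicate 1, 2 h replicate 3, 18 h replicate 1, 18 h replicate 3 or 22 h replicate 2, with adjusted p up to 0.0770.

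Per2, whose protein links the clock to metabolic receptors, fell in iBAT. Fed levels there ran from 48.3 to 115.4 CPM (median 76.8), and late levels were 44.8, 51.1, 65.9, 21.7 and 43.98 CPM. Of the 5 late libraries 3 lay below every fed one. Per2 fell by 0.90 on the log2 scale (SE 0.262, adjusted p = 0.0136). It was not called with 0 h alone as fed (-0.82, adjusted p = 0.0620), with 18 h alone as late (-0.56, adjusted p = 0.672), with length offsets (-0.56, adjusted p = 0.0545), with the library number series as a covariate (-0.70, adjusted p = 0.0877) or without iBAT 22 h replicate 2 (adjusted p = 0.0868). In STM it stood at 55.4 to 93.5 CPM late (median 79.6) and 25.1 to 85.3 CPM fed (median 49.8), and the log2 fold change of 0.62 was not called (SE 0.233, adjusted p = 0.0653). It was called there with 0 h alone as fed and without STM 0 h replicate 2, 2 h replicate 2 or 18 h replicate 2. In BRN the log2 fold change was -0.82 (SE 0.251, adjusted p = 0.0515).

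Cry2, 1 of the 2 cryptochromes, was called in 3 organs and not with 1 sign. In STM its fed levels ran from 24.3 to 41.9 CPM (median 36.2) and its late levels were 71.6, 52.0, 52.6, 49.6, 44.5 and 44.1 CPM. All 6 late libraries lay above all 6 fed ones. Cry2 rose in STM by 0.56 on the log2 scale (SE 0.148, adjusted p = 0.0129), with the call kept without any 1 of 17 libraries. In OB it ran from 155.99 to 176 CPM fed (median 159.9) and from 169.7 to 195.8 CPM late (median 186), with 5 of 6 late libraries above every fed one. The rise in OB was 0.19 (SE 0.0464, adjusted p = 0.0260), the smallest among the called pairs. It was not called without OB 0 h replicate 1, 2 h replicate 2, 2 h replicate 3 or 22 h replicate 3, with adjusted p up to 0.0787.

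In iBAT, Cry2 fell. Fed levels ran from 37.2 to 66.5 CPM (median 44.4), and late levels were 43.3, 42.5 and 36.5 CPM at 18 h and 22.6 and 22.7 CPM at 22 h. The 2 libraries of 22 h were far below the fed range and 2 of the 3 of 18 h lay within it. The log2 fold change was -0.62 (SE 0.217, adjusted p = 0.0329), with -0.20 for 18 h alone (adjusted p = 0.835) and -1.05 for 22 h alone (adjusted p = 0.0101). It was -0.22 with length offsets (adjusted p = 0.438). Leaving out any one of iBAT 0 h replicate 2, 2 h replicate 1, 2 h replicate 3, 18 h replicate 2, 18 h replicate 3, 22 h replicate 2 and 22 h replicate 3 ended the call, with adjusted p up to 0.0880. In pgWAT, late levels ran from 37.1 to 70.7 CPM (median 58.1) and fed levels from 60.3 to 89.2 CPM (median 80.9), with a log2 fold change of -0.46 (SE 0.149, adjusted p = 0.142).

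Cry1, the other cryptochrome and known as the stronger repressor, was not called in any organ in the late fast by edgeR or DESeq2, and 2 of its 9 organs had an unadjusted p under 0.05. Its log2 fold changes ran from -0.43 in iBAT (SE 0.198, adjusted p = 0.0956) to 0.15 in CBL (SE 0.0671, adjusted p = 0.215). Without iBAT 22 h replicate 3, iBAT was called (-0.85, adjusted p = 0.00337).

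Nr1d1, the receptor that represses Arntl, fell in BRN. Fed levels there ran from 69.6 to 98.6 CPM (median 91.1), and late levels were 33.5 and 74.2 CPM at 18 h and 58.7, 61.6 and 71.1 CPM at 22 h. Of the 5 late libraries 3 lay below every fed one, the lowest being BRN 18 h replicate 2, in which neuronal markers were lowest too. Nr1d1 fell by 0.57 on the log2 scale (SE 0.172, adjusted p = 0.0494), and without the 2 BRN libraries nearest to another organ it was -0.40 (adjusted p = 0.250). It was called without 1 library in 4 of 16 cases, those of 12 h replicate 2, 12 h replicate 3, 18 h replicate 3 and 22 h replicate 3, with log2 fold changes from -0.92 to -0.35 over the 16. In OB, where late levels were 116.1 to 133.3 CPM (median 123.4) against 95.6 to 117.8 CPM fed (median 111.1), the log2 fold change was 0.19 (SE 0.0584, adjusted p = 0.0577).

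Nr1d2, the partner of Nr1d1 in that repression, was not called in the late fast in any of 9 organs by edgeR or DESeq2, and 1 organ, pgWAT, had an unadjusted p under 0.05. Late levels there ran from 132.7 to 212 CPM (median 149.6) and fed levels from 59.4 to 145.5 CPM (median 119.9). Of the 6 late libraries 4 lay above every fed one, and the lowest fed value was that of mouse 3. The log2 fold change was 0.47 (SE 0.184, adjusted p = 0.188).

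**Figure D3:**
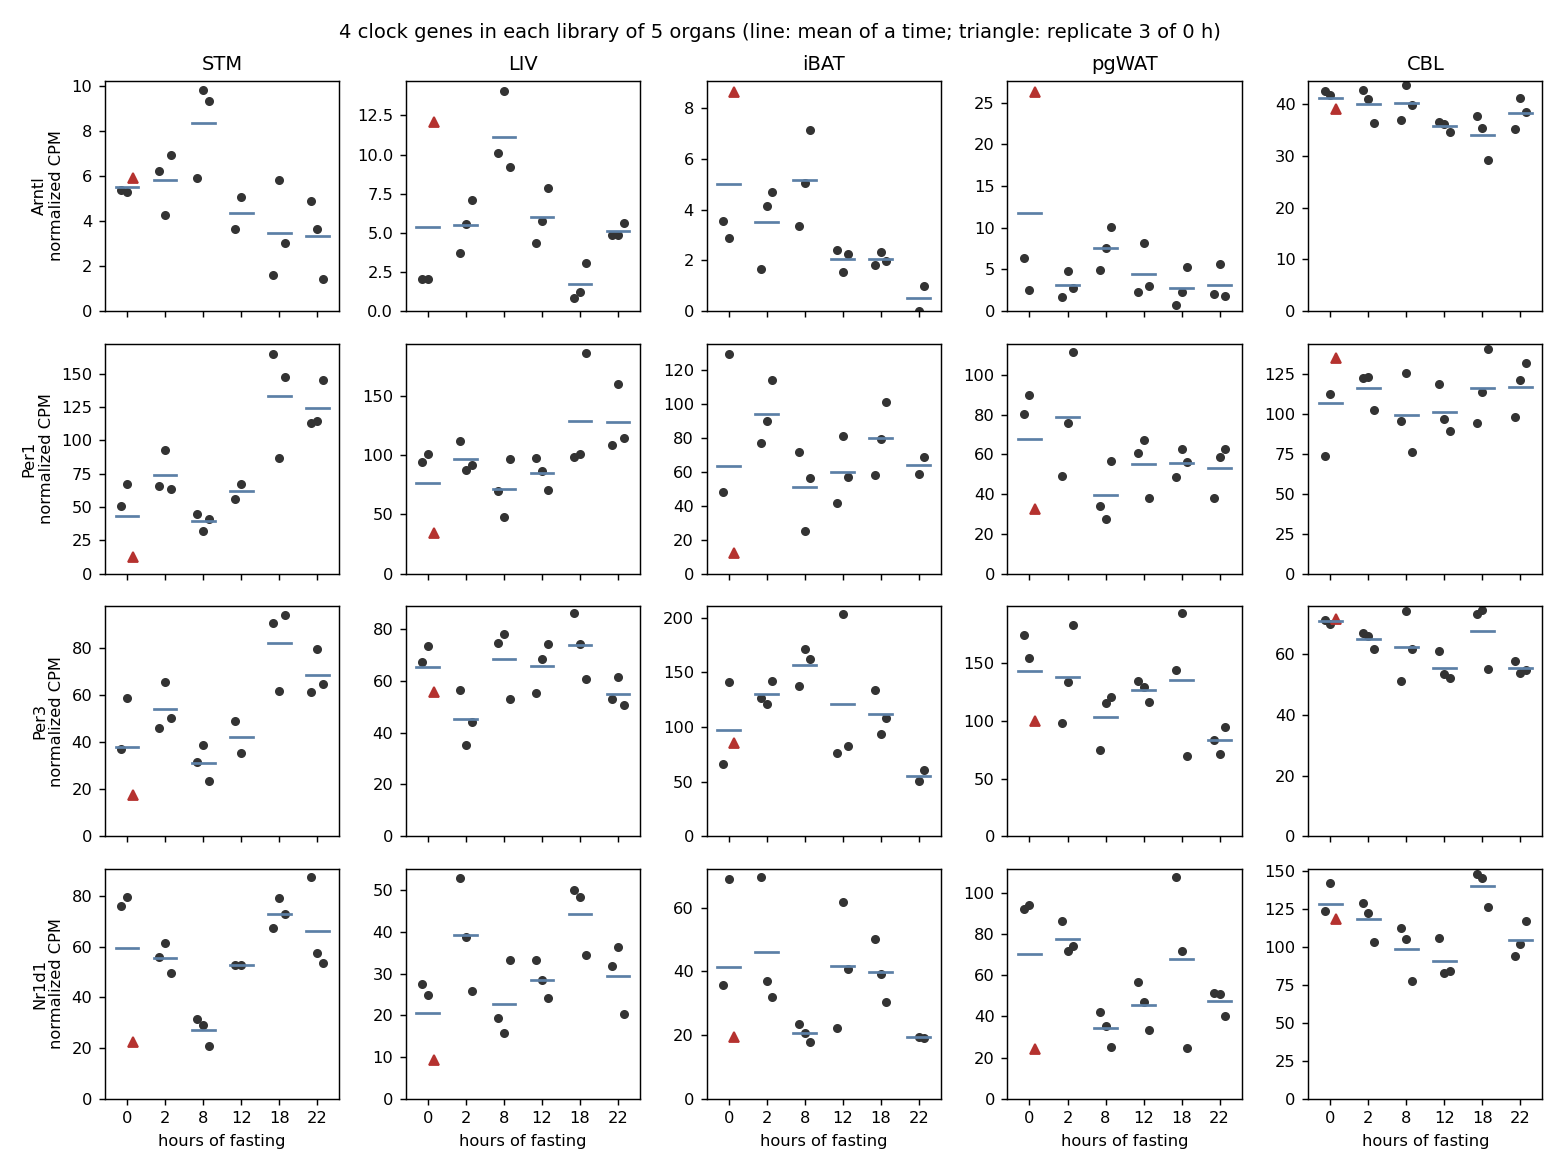
Normalized CPM (vertical axis) of Arntl, Per1, Per3 and Nr1d1 in every retained library of STM, LIV, iBAT, pgWAT and CBL against hours without food (horizontal axis). Points are mice, short horizontal lines mark the mean of each time, and triangles mark mouse 3 of 0 h. Per1 in STM is higher at 18 h and 22 h than when fed, with 1 late library inside the fed range, and mouse 3 is the lowest of the 3 mice of 0 h in Per1 and Nr1d1 and the highest in Arntl in the 4 non-nervous organs shown.

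The calls have to be read against how many genes were called in each organ. In the late fast 3 of 10 clock genes were called in STM beside 22.8% of all genes tested there, 4 of 9 in iBAT beside 36.02%, and 1 of 9 in LIV beside 14.96%. In BRN 1 of 10 was called beside 7.43%, and in OB 1 of 10 beside 4.87%. The BRN percentage moved with the libraries used: 0 of 16611 genes were called without BRN 2 h replicate 3 and 18 h replicate 2, which leaves 1 library at 18 h, and 0% to 32.8% without any 1 library. No clock gene was called by edgeR in CBL (2.48% of all genes), BST (0.0775%), pgWAT (0.00609%) or psWAT (0%), where 3, 1, 3 and 0 of them had an unadjusted p under 0.05. DESeq2 called 0, 0, 1 and 0 there, the 1 being Cry2 in pgWAT. In psWAT edgeR called 0 genes of 16714, DESeq2 42, and 1143 had an unadjusted p under 0.05. With 9 or 10 clock genes in an organ, 1 call more or less moves their share by at least 10 points.

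Sequencing lane bears on these counts. In OB, STM and LIV the libraries of 0 h and 2 h ran on 1 sequencing lane and those of 12 h, 18 h and 22 h on another, and only the 8 h libraries held both. With the lane as a covariate, estimated from those 8 h libraries, none of the 5 late calls in these organs was kept, so that lane and late fast cannot be told apart there. In this fit the STM values were Per1 1.09 (adjusted p = 0.906), Cry2 0.92 (adjusted p = 0.899) and Per3 1.32 (adjusted p = 0.899), LIV Clock was -0.37 (adjusted p = 0.488) and OB Cry2 0.21 (adjusted p = 0.648), all of them in the same direction. BRN Nr1d1, with lanes mixed over times, was -0.65 (adjusted p = 0.317). In iBAT lane could not be fitted beside all the times at once, since 22 h shared no lane with the other times. The fed and daytime libraries and most of 18 h shared lanes, and lane was not tested on those times alone. The 2 libraries of 22 h were the only iBAT libraries on their lanes and 1 of 18 h was alone on its lane, so that lane and 22 h cannot be told apart there either. With 18 h alone as the late group 0% of all genes were called in iBAT. Within 22 h alone, the 3 STM calls were lost, with log2 fold changes of 1.13 (Per1), 0.39 (Cry2) and 0.60 (Per3).

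Log2 fold changes also moved with transcript length, most in iBAT, where their correlation with log exon length across 14249 genes, which are not independent replicates, was -0.429. With length offsets the median of all genes moved from -0.08 to 0.08 in iBAT and from -0.07 to 0.12 in BRN in the late fast, and from -0.04 to 0.07 in BRN in the daytime fast. Of the called genes, the percentage that rose went from 46.04 to 67.1 in iBAT, 69.9 to 93.5 in BRN, 47.7 to 73.4 in OB and 31.1 to 47.3 in CBL in the late fast, and from 22.2 to 33.3 in iBAT in the daytime fast. Clock has 13.7 kb of exon, the most of the 10, and Nr1d1 3.08 kb, the least. Against that shift Arntl in iBAT was -1.42 (adjusted p = 0.0243).

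The daytime fast was compared with the fed state to ask which clock genes differ after a fast mostly in the light phase. It left the clock genes largely uncalled: 1 of 87 pairs, Per3 in BRN, beside 2.94% of all genes in BRN. That call was lost with length offsets, with the library number series as a covariate and with a block for the replicate number. It was also lost with the libraries that the study left out put back. Daytime log2 fold changes of all BRN genes had r = -0.359 with log exon length, the strongest of the 9 organs. Per3 has 9.61 kb of exon. Its fed levels were 61.4, 68.2 and 70.7 CPM at 0 h and 36.7, 62.1 and 45.4 CPM at 2 h, and its daytime levels 34.96 and 38.6 CPM at 8 h and 35.7, 23.3 and 34.02 CPM at 12 h. The 3 mice of 0 h were high and 4 of 5 daytime libraries lay below every fed one. Per3 fell by 0.74 on the log2 scale (SE 0.187, adjusted p = 0.0407), and was not called without BRN 2 h replicate 3 and 18 h replicate 2 (-0.76, adjusted p = 0.0533). It was called without 1 library in 7 of 16 cases, and not without BRN 0 h replicate 1, 2 or 3, 2 h replicate 2 or 3, 8 h replicate 1 or 2, 12 h replicate 2 or 22 h replicate 1 (adjusted p up to 0.165).

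Elsewhere edgeR called 0 clock genes in the daytime fast, beside 0.185% of all genes in OB, 0% in CBL, 0.0238% in BST, 0% in STM, 17.98% in LIV, 0.0620% in iBAT, 0% in pgWAT and 0% in psWAT. At an unadjusted p under 0.05 there were 4 in OB, 3 in CBL, 2 in BST, 1 in STM, 2 in LIV, 0 in iBAT, 2 in pgWAT and 2 in psWAT. DESeq2 called 1 in CBL (Nr1d1) and 1 in LIV (Per2), and 0 in the other 6. Over all genes edgeR called 0 in CBL, STM, pgWAT and psWAT, DESeq2 43, 12, 9 and 9, and 1878, 818, 935 and 1731 had an unadjusted p under 0.05. In LIV, Arntl stood at 10.1, 14.04 and 9.22 CPM at 8 h and 4.35, 5.75 and 7.89 CPM at 12 h, against 2.05, 2.03 and 12.1 CPM at 0 h, the last being mouse 3, and 3.73, 5.58 and 7.10 CPM at 2 h. The 12 h libraries lay within the fed range and 1 of 8 h lay above it. Its log2 fold change of 0.59 was not called (SE 0.384, adjusted p = 0.305), and without LIV 0 h replicate 3 it was 1.27 and called (adjusted p = 0.00306). In CBL, Nr1d1 had levels of 77.7 to 112.2 CPM in the daytime fast (median 94.9) and 103.4 to 141.97 CPM fed (median 122.9998), with a log2 fold change of -0.38 (SE 0.0913, adjusted p = 0.172).

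A joint test of the 6 times, which asks for a change at any of them, called 11 of the 87 pairs. In OB 5 of 10 clock genes were called, beside 15.4% of all genes, in CBL 1 of 10 beside 2.99%, in STM 1 of 10 beside 6.55%, in LIV 2 of 9 beside 15.98% and in iBAT 2 of 9 beside 29.03%. None was called by edgeR in BRN (0.00597%), BST (0.107%), pgWAT (0%) or psWAT (0%), where 3, 4, 2 and 0 had an unadjusted p under 0.05 and DESeq2 called 2, 1, 0 and 0. Over all genes edgeR called 0 in pgWAT and psWAT, DESeq2 556 and 2052, and 1693 and 3192 had an unadjusted p under 0.05.

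In OB the extremes of the 6 time means lay at 8 h and 18 h for Clock, Per2, Npas2 and Nr1d1 and at 2 h and 22 h for Cry2, and other times could spread widely, as did Per2 at 0 h (27.9, 27.02 and 55.6 CPM). Clock was at 102.4 to 113.7 CPM in the 3 mice of 8 h and at 55.3 to 74.4 CPM in those of 18 h (adjusted p = 0.00935), and the 2 groups were apart. Per2 was at 42.96, 47.8 and 52.9 CPM at 8 h and 20.04, 22.97 and 24.9 CPM at 18 h (adjusted p = 0.0294), and again the groups did not overlap. Npas2 was at 15.6, 15.5 and 17.0 CPM at 8 h and 11.5, 12.6 and 11.5 CPM at 18 h (adjusted p = 0.0396), a smaller step in the same direction. Nr1d1 went the other way, with 103.1, 88.7 and 97.1 CPM at 8 h and 122.7, 133.3 and 125.5 CPM at 18 h (adjusted p = 0.00953). Cry2 was also called (adjusted p = 0.0477), with 163.4, 157.7 and 161.5 CPM at 2 h and 188.1, 195.8 and 195.5 CPM at 22 h. With lane as a covariate the calls of Clock and Nr1d1 in OB were kept and those of Per2, Npas2 and Cry2 were lost. Log2 fold changes of all OB genes had r = -0.239 with log exon length in the late fast and 0.219 in the daytime fast. Clock has 13.7 kb of exon, the most of the clock genes, and Nr1d1 3.08 kb, the least. A smaller share of all OB genes was called in the joint test with length offsets, as given below. Whether the calls of Clock and Nr1d1 were kept with those offsets is not given here. Over the 18 left-out libraries Clock and Nr1d1 were called in 18, Per2 in 13, Npas2 in 8 and Cry2 in 1.

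In CBL, Nr1d1 was at 112.2, 105.5 and 77.7 CPM at 8 h, 105.8, 83.01 and 84.3 CPM at 12 h, the lowest mean, and 147.97, 145.2 and 126.3 CPM at 18 h (adjusted p = 0.0425), called in 8 of 18 left-out libraries. In LIV, Nr1d2 was at 39.04 CPM in mouse 3 of 0 h, at 82.5 and 76.96 CPM in the other 2, and at 111.4, 100.2 and 117.01 CPM at 18 h (adjusted p = 0.0398), called in 4 of 18. Clock in LIV was called in 18 of 18 (adjusted p = 0.0101), and lost with lane as a covariate. Per1 in STM was called in 5 of 17 (adjusted p = 0.0369). In iBAT, Arntl was called in 16 of 17 (adjusted p = 0.0204), not without iBAT 22 h replicate 2, and Clock in 4 of 17 (adjusted p = 0.0439). With mouse 3 of 0 h left out of every organ, an alternative added after the data were seen, 19 pairs were called in the joint test, 11 in the late fast and 4 in the daytime fast. That mouse was singled out by its clock genes, so that a change in these counts follows in part from the choice. The shares of all genes called without it are not given here.

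Whether the late change differed between organs was tested in 1 fit over all organs with the animal as a block. The joint test of equal change in the 9 organs called 6 of the 10 clock genes, beside 35.9% of all 19538 genes: Per2 (adjusted p = 0.000978), Cry2 (adjusted p = 0.00222), Per3 (adjusted p = 0.00274), Per1 (adjusted p = 0.00513), Nr1d2 (adjusted p = 0.00816) and Clock (adjusted p = 0.0468). For these genes the organs differed in the log2 fold change of the late fast: Per2 ranged from -0.90 in iBAT to 0.62 in STM, Cry2 from -0.62 in iBAT to 0.56 in STM and Per1 from -0.42 in pgWAT to 1.17 in STM. Per3 ranged from -0.55 in BRN to 0.73 in STM, Nr1d2 from -0.36 in BRN to 0.50 in psWAT and Clock from -0.69 in iBAT to 0.10 in psWAT. All 6 have opposite signs at their ends. Lane was not a term in this fit. It cannot be told apart from the late fast in OB, STM and LIV, nor from 22 h in iBAT. In pgWAT, too, fed and late libraries shared no lane. The other 4 were not called, with adjusted p of 0.190 for Arntl, 0.330 for Npas2, 0.0770 for Cry1 and 0.142 for Nr1d1. These are from edgeR, and limma with the animal as a random effect also called Arntl (adjusted p = 0.0329) and Cry1 (adjusted p = 0.0444). In edgeR without the block Clock was not called (adjusted p = 0.0624). Without mouse 3 of 0 h, Nr1d2 (adjusted p = 0.0791) and Clock (adjusted p = 0.0610) were not called and Cry1 was (adjusted p = 0.0384).

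Between the 5 non-nervous and the 4 nervous organs 1 of the 10 clock genes differed in its late change, beside 5.81% of all genes. The change of Nr1d2 was higher outside the nervous system by 0.47 on the log2 scale (SE 0.108, adjusted p = 0.00299). Its log2 fold change was above 0 in all 5 non-nervous organs (0.13 to 0.50) and below 0 in 3 of the 4 nervous ones (CBL 0.02). Without mouse 3 of 0 h the difference was 0.33 (adjusted p = 0.0598) and not called. Lane was not a term here either, and fed and late libraries shared no lane in STM, LIV and pgWAT nor, among the nervous organs, in OB. Arntl had a difference of -0.57 (SE 0.231, adjusted p = 0.140), which was -0.73 and called without the 4 libraries nearest to another organ (adjusted p = 0.0273), and -0.28 without mouse 3 of 0 h (adjusted p = 0.633).

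The 7 genes that the clock drives outside its core (Dbp, Tef, Hlf, Nfil3, Bhlhe40, Bhlhe41 and Ciart) gave 63 pairs, of which 10 were called in the late fast, 9 higher and 1 lower. STM held 5 of them, of 7, beside 22.8% of all genes. Dbp, a PAR bZIP activator of D-box genes, rose there by 0.93 on the log2 scale (SE 0.237, adjusted p = 0.0110), from 33.04 to 125.05 CPM fed to 128 to 199.6 CPM late, with all 6 late libraries above all fed ones. Its relatives Hlf and Tef rose by 1.10 (SE 0.260, adjusted p = 0.00813) and 0.75 (SE 0.157, adjusted p = 0.00377), and Ciart, a repressor of the activators, by 1.26 (SE 0.325, adjusted p = 0.0121). Bhlhe40, another repressor of the activators, went down in STM (-0.52, SE 0.141, adjusted p = 0.0150). Dbp rose also in OB (0.45, adjusted p = 0.0107) and in iBAT (0.85, adjusted p = 0.0434), the organ where Arntl fell. Ciart rose in OB (0.54, adjusted p = 0.00967), Tef in LIV (0.34, adjusted p = 0.0496) and Bhlhe40 in CBL (0.27, adjusted p = 0.0272). With lane as a covariate no gene was called in OB or STM, so that none of these calls there was kept. In LIV lane and late fast cannot be told apart either. In iBAT no gene was called with 18 h alone as late. In the daytime fast 1 of the 63 pairs was called, 1 of 7 in LIV beside 17.98% of all genes there, Bhlhe40 (-0.58, SE 0.193, adjusted p just under 0.05).

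The 20 genes that modify the clock (kinases and ubiquitin ligases that act on PER and CRY, nuclear receptors, subunits of AMPK and others) gave 175 tested pairs and 11 late calls, 3 higher and 8 lower. In iBAT, 5 of 19 fell, beside 36.02% of all genes called there: Prkaa2 (-1.07, adjusted p = 0.00129) and Prkaa1 (-0.44, adjusted p = 0.0466), catalytic subunits of AMPK, Gsk3b (-1.10, adjusted p = 0.00279), Csnk1e (-0.66, adjusted p = 0.00761), the casein kinase that marks PER for degradation, and Arntl2 (-0.87, adjusted p = 0.0167), the paralog of Arntl. In STM, Usp2, a deubiquitinase with a strong daily rhythm, rose by 1.32 (SE 0.175, adjusted p = 0.000343), Csnk1e rose by 0.62 (adjusted p = 0.0167) and Fbxw11 fell (-0.43, adjusted p = 0.0336). Prkaa2 fell in LIV (-0.40, adjusted p = 0.00873), and in BRN Gsk3b fell (-0.65, adjusted p = 0.0420) and Nono rose (0.59, adjusted p = 0.0457), neither of them called without the 2 BRN libraries nearest to another organ. The STM calls were lost with lane as a covariate, and in LIV lane and late fast cannot be told apart. The iBAT calls were lost with 18 h alone as late. In the daytime fast 3 of the 175 were called, all in LIV (3 of 19, beside 17.98% of all genes there), with Prkaa2 (-0.44, adjusted p = 0.00511) and Csnk1a1 (-0.27, adjusted p = 0.0239) among them.

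Glucocorticoids follow the clock and act on Per1, so 6 of their target genes (Fkbp5, Tsc22d3, Sgk1, Zbtb16, Ddit4 and Klf9) were set beside it. Of 54 pairs 7 were called in the late fast and all rose, in organs where 36.02% (iBAT), 22.8% (STM), 7.43% (BRN), 4.87% (OB) and 2.48% (CBL) of all genes were called. Ddit4 rose in OB (0.43, adjusted p = 0.00677), CBL (0.47, adjusted p = 0.0491), STM (0.58, adjusted p = 0.0270) and iBAT (1.41, SE 0.328, adjusted p = 0.00504). Tsc22d3 rose in BRN (0.68, adjusted p = 0.0327, not called without those 2 libraries), STM (0.71, SE 0.137, adjusted p = 0.00248) and iBAT (0.81, adjusted p = 0.0267). None of the OB and STM calls was kept with lane as a covariate, and none of the iBAT calls with 18 h alone as late. In the daytime fast edgeR called 0 of 54, with 2 at an unadjusted p under 0.05 (1 in LIV and 1 in pgWAT), and DESeq2 called 1, Klf9 in LIV. Corticosterone was not measured, and its part in the Per1 values was not tested.

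In the test of the difference between organs, 5 of the 7 output genes, 8 of the 20 modifiers and 4 of the 6 glucocorticoid targets were called beside the 35.9% of all genes. Lane was not a term in the fit over all organs. Between non-nervous and nervous organs the late change of Dbp was higher outside the nervous system by 0.55 (SE 0.147, adjusted p = 0.0119), as was that of Sirt1 (0.34, adjusted p = 0.0397), and that of Sgk1 was lower (-0.56, adjusted p = 0.0105). In the level test 5 of 7, 20 of 20 and 6 of 6 were called, beside 89.5% of all genes.

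A check was made on 10 liver genes known to answer to fasting (among them Cpt1a, Pdk4, Angptl4, Fgf21, Pck1, Srebf1, Fasn and Pnpla3). In the late fast in LIV edgeR called 0 of them, beside 14.96% of all genes, with 2 at an unadjusted p under 0.05. DESeq2 called 2 (Fasn and Fgf21). Fasn, fatty acid synthase, averaged 539 CPM fed (SD 358, n = 6) and 224 CPM late (SD 131.4, n = 6), with a log2 fold change of -1.09 (SE 0.402, adjusted p = 0.0892). Fgf21, a fasting hormone, averaged 0.412 CPM fed (SD 0.359) and 1.41 CPM late (SD 0.943), with 1.77 (SE 0.644, adjusted p = 0.0690). Its fed mean lay below the floor of 3 counts in LIV, 0.431 CPM, so that this log2 fold change is not exact. In the daytime fast Cpt1a, the gate of fatty acid oxidation, fell (-0.56, adjusted p = 0.0403), beside 17.98% of all genes called in LIV.

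Ciart, Dbp and Per1 had their lowest time mean at 8 h in most organs, a pattern that was singled out after the values were seen. This held for Ciart in 9 of 9 organs, for Dbp in 8 and for Per1 in 7. For Nr1d1 it held in 5, for Tef in 3, for Nr1d2, Per3, Npas2 and Bhlhe41 in 2 each and for Hlf, Per2 and Cry2 in 1 each. Arntl had its highest mean at 8 h in 4 (OB, STM, LIV and iBAT). So did Cry1 and Nfil3 in 4 organs each, and Clock, Per2 and Hlf in 3 each. All organs came from the same mice. In STM, Per1 was at 45.1, 31.7 and 40.7 CPM at 8 h, Nr1d1 at 31.6, 28.995 and 20.8 CPM and Dbp at 50.2, 33.4 and 28.4 CPM. Mouse 3 of 0 h also had low Per1, Nr1d1, Dbp and Ciart and high Arntl in its non-nervous organs next to the other mice of 0 h: its log2 ratio to the mean of the other 2 mice had a median over the 5 organs of 1.30 for Arntl, -1.49 for Per1, -1.74 for Nr1d1, -1.02 for Nr1d2, -1.86 for Dbp and -1.87 for Ciart. In its 4 nervous organs the medians were 0.06, 0.42, -0.02, -0.15, -0.39 and -0.36. In LIV this mouse had 12.1 CPM of Arntl against 2.05 and 2.03 CPM in the others, and 9.30 CPM of Nr1d1 against 27.5 and 24.98 CPM. The cause was not tested.

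Across all retained libraries, with the organ mean subtracted from log2 normalized CPM, clock genes moved with each other. These correlations are descriptions over libraries that share mice, lanes and times. Arntl ran against Dbp (r = -0.708 and below 0 in 9 of 9 organs, with -0.784 over 87 non-nervous libraries and -0.124 over 70 nervous ones), against Per1 (r = -0.405) and against Nr1d2 (r = -0.418). It ran with Clock (r = 0.495) and Cry1 (r = 0.440). Nr1d1 ran with Nr1d2 (r = 0.616), Per2 with Per3 (r = 0.713) and Per3 with Cry2 (r = 0.731). In that order these r were 0.663, 0.776 and 0.778 over the non-nervous libraries and 0.274, 0.539 and 0.311 over the nervous ones. Some pairs differed in sign between nervous and non-nervous organs, among them these: Arntl with Nr1d2 had r = -0.557 over 87 non-nervous libraries and 0.564 over 70 nervous ones, and Arntl with Nr1d1 had -0.422 and 0.480.

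Among 11676 genes kept in all 9 organs, the 3 most alike to each clock gene were taken, and 6 of these 30 places were held by the output genes Ciart, Dbp and Tef. The number expected by chance was not tested. For Per1 they were Ciart (r = 0.702), Tob2 (r = 0.633) and Fam107a (r = 0.612), and for Nr1d1 Dbp (r = 0.699), Ciart (r = 0.658) and Tef (r = 0.623). For Per3 they were Cc2d2a (r = 0.812), Tef (r = 0.809) and Npr2 (r = 0.800), and for Cry2 Dab2ip (r = 0.830), Tef (r = 0.805) and Rbfox2 (r = 0.799). Those of Per3 and Cry2 reached r of 0.935 to 0.976 within psWAT, whose libraries were mixtures. Per2 had Dock9 (r = 0.715), Per3 (r = 0.713) and Snrk (r = 0.707), and Nr1d2 had Rora (r = 0.693), Fbxo21 (r = 0.663) and Klf9 (r = 0.650). The activators had other neighbours: Arntl had Gm15459 (r = 0.664), Lmnb2 (r = 0.627) and Eml4 (r = 0.617), and Clock had Cpeb4 (r = 0.752), 9930021J03Rik (r = 0.718) and Hook3 (r = 0.716). Cry1 had Leo1 (r = 0.590), Armcx3 (r = 0.569) and Necap1 (r = 0.555). Npas2 had the loosest, Rps15a (r = 0.480), Hectd2 (r = 0.449) and Cspp1 (r = 0.444), and its counts were near 0 in 4 organs.

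The promoters of members that moved together were searched for the motifs that the loop is known to use. RefSeq sequences (GRCm38.p6, 250 bases before to 50 after the start of a transcript) were held for 9 of the 10 genes, with 13 promoters, and for Per2 there was no entry. The E-box CACGTG, which reads the same on both strands and is the site of Arntl with Clock, was in 7.15% of all 32851 promoters. The related CACGTT, or AACGTG on the other strand, was in 4.68%, the D-box TTATGTAA, on the other strand TTACATAA, which is the site of Dbp, Tef and Hlf, in 0.938%, and the ROR element TAGGTCA, on the other strand TGACCTA, which is the site of the RORs and REV-ERBs, in 2.61%. Per1 held an E-box at -166 from its start, Cry1 an E-box at -60 and AACGTG at -79, Cry2 AACGTG at -166 and Nr1d1 AACGTG at -28. Per3 held 2 D-boxes, at -205 and -158, and Arntl a ROR element at 31, the only member promoter with one. The promoters of Clock, Npas2 and Nr1d2 held none of these letters, which says nothing about the factors. Among the outputs, Ciart held 3 E-boxes, Tef 2, over its pair of promoters, Bhlhe41 an E-box at -153 and Nfil3 a ROR element at -12. Arntl and Per1 have 2 promoters each, of which only the 1 with a motif is printed among the promoters below. Those of Arntl, Per1, Per3 and Nr1d1 are printed, since their transcripts are shown by library above, 5′ to 3′ on the strand of the gene with the motif in capitals, from chr7:113207261-113207560 (plus), chr11:69098699-69098998 (plus), chr4:151044616-151044915 (minus) and chr11:98775328-98775627 (minus).
Arntl: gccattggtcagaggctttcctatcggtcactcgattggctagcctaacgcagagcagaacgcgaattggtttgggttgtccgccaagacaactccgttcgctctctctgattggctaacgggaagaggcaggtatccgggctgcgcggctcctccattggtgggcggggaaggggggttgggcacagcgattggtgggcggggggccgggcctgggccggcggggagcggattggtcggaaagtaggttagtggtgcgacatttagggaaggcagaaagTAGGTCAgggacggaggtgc
Per1: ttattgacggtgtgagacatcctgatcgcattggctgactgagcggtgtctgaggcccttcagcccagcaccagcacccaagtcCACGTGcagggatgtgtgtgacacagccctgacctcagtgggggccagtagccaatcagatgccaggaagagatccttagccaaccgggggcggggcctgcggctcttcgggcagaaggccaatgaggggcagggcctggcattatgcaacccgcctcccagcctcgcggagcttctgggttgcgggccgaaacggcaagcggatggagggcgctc
Per3: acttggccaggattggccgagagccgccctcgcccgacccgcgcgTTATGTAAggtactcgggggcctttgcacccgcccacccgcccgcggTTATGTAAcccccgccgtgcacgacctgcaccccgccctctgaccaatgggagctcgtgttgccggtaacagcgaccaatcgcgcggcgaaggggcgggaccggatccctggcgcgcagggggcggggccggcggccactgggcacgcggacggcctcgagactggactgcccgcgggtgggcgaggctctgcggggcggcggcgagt
Nr1d1: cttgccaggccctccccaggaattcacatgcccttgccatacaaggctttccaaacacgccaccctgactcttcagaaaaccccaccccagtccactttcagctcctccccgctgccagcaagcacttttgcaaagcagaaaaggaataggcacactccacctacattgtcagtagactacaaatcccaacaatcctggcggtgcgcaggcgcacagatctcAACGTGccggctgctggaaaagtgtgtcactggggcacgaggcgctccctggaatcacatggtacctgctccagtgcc
Per1 and Per3 rose together in STM in the late fast, and their promoters share none of the motifs searched.

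Sums of cell type markers, which measure RNA and do not count cells, moved with some of these results. The r values below run over all times of an organ. A sum and a gene that both differ with fasting time therefore also correlate. In STM the 4 stomach markers (all detected in all 17 libraries, Gkn1 or Tff1 the most abundant) summed to 26422 to 101508 CPM fed (median 44595) and 10785 to 47818 CPM late (median 16257). The 4 skeletal muscle markers there, led by Acta1 in 15 of 17 libraries and with Myh4 at 0 in 3, summed to 227 to 1576 CPM fed and 1715 to 3330 CPM late, with no overlap. The 4 keratinocyte markers, led by Krt10 in 15 of 17, summed to 1739 to 6087 CPM fed and 258 to 8605 CPM late. Across the 17 libraries the stomach sum had r = -0.841 with Per1, -0.803 with Per3, -0.759 with Per2, -0.730 with Cry2, -0.701 with Nr1d2 and 0.787 with Arntl, and the muscle sum 0.490 with Per1. The part of composition in the STM calls was not tested.

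In iBAT the 4 brown fat markers, all detected and led by Ucp1, summed to 4513 to 10564 CPM fed (median 5712) and 6615 to 10043 CPM late (median 7324). The 4 adipocyte markers summed to 2653 to 3016 CPM fed and 3584 to 4785 CPM late, again with no overlap, and the macrophage markers, led by Lyz2, to 28.2 to 150.3 CPM fed and 88.5 to 241 CPM late. Across 17 libraries the brown fat sum had r = -0.573 with Arntl, -0.534 with Clock, -0.632 with Per2, -0.594 with Cry2 and -0.832 with Per3. The skeletal muscle markers ranged from 30.0 to 8533 CPM and had r = 0.190 with Arntl, -0.301 with Clock, -0.144 with Per2 and 0.199 with Cry2, but -0.588 with Nr1d2, -0.539 with Npas2 and -0.473 with Nr1d1. The part of these in the iBAT calls was not tested.

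In BRN the neuronal sum, with all 4 markers detected and Snap25 the most abundant, was 3414 to 3984 CPM fed, 2801 to 3607 CPM in the daytime fast and 2067 to 3703 CPM late, and over 16 libraries it had r = 0.920 with Nr1d2, 0.765 with Nr1d1, 0.760 with Arntl, 0.637 with Cry1 and 0.506 with Per3. The suprachiasmatic sum was 39.1 to 62.9 CPM fed, 66.6 to 104.4 CPM in the daytime fast and 60.01 to 99.4 CPM late, and had r = -0.737 with Nr1d2, -0.637 with Per3 and -0.606 with Nr1d1. All 5 daytime libraries lay above all 6 fed ones in it. The same 4 genes summed to 34.7 to 49.2 CPM in OB, so that their sum does not measure the suprachiasmatic nucleus alone. How much of each region a BRN sample held was not measured, and its part in the BRN calls was not tested. In psWAT, over 17 libraries, the adipocyte sum had r = 0.897 with Per3, 0.796 with Per2 and 0.723 with Cry2. The skeletal muscle sum had 0.275, 0.263 and 0.369 with them. Markers of another cell type, not given here, ran against Per2 and Cry2 more closely than the adipocyte sum ran with them. The part of each cell type was not tested. In LIV and OB the organ's own markers had r between -0.513 and 0.312 with the members.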

How the data were processed

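RNA was sequenced (TruSeq stranded mRNA) from 9 organs of 18 mice. The authors aligned reads to GRCm38.p5 with TopHat2 2.1.1 and deposited raw counts per gene made with HTSeq 0.9.1, with no normalization; the strand setting of the counting was not stated. Counts of the 157 retained libraries were fitted per organ with edgeR 4.0.16 (TMM factors, robust quasi-likelihood test, 6 time means, R 4.3.3), and genes stayed in when at least 3 libraries exceeded the CPM that 10 counts give at the median library size. The late contrast was the mean of 18 h and 22 h minus that of 0 h and 2 h, the daytime contrast the mean of 8 h and 12 h minus the same, and a joint test took all 6 times. A gene was called at a Benjamini-Hochberg adjusted p under 0.05 over all genes of the organ. Differences between organs were tested in 1 fit with the animal as a block. The animal was taken from the replicate number within a time. The consensus correlation between libraries of an animal so defined, from limma, was 0.00559. DESeq2 1.42.0, limma 3.58.1, RLE factors, no filter, a replicate block, lane, library number series, all 162 libraries, other time groups, a fold threshold, length offsets and leaving out libraries were alternatives. Correlations used log2 normalized CPM with a pseudocount of 0.5, and summaries came from Python 3.11.15 with pandas 2.3.3, numpy 2.4.6 and matplotlib 3.10.9. The fit of the late contrast in LIV was tested on simulated data, where 152 of 200 changed genes were recovered with 9 false calls. The other fits were not tested in this way. Named were the 10 members, called genes of the other lists (at most 5 a list and organ), the 3 genes most alike to each member and the liver fasting genes. The members and lists were chosen with earlier results of these data known. Results of some genes are not reported.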

Additional observations from a re-analysis of the deposited data

Results flagged for a closer look

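The late fast change of 6 clock genes differed between the 9 organs by the joint interaction test of edgeR with the animal as a block. The adjusted p was 0.0468 for Clock, 0.00222 for Cry2, 0.00816 for Nr1d2, 0.00513 for Per1, 0.000978 for Per2 and 0.00274 for Per3. Beside these 6 of 10, 35.9% of all genes were called in the same test. Lane was not a term in it, and lane cannot be told apart from the late fast in OB, STM and LIV, nor from 22 h in iBAT. In pgWAT, too, fed and late libraries shared no lane. Without mouse 3 of 0 h, Nr1d2 (adjusted p = 0.0791) and Clock (adjusted p = 0.0610) were not called, nor was Clock without the animal block (adjusted p = 0.0624).

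The late fast change of Nr1d2 was higher in the non-nervous than in the nervous organs by 0.47 on the log2 scale (edgeR, adjusted p = 0.00299), and by 0.33 without mouse 3 of 0 h (adjusted p = 0.0598), where it was not called. Lane was not a term in this fit, and fed and late libraries shared no lane in OB, STM, LIV and pgWAT. The cause was not tested.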

How the results depend on the processing

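Over all alternatives and left-out libraries, 2328 of 2460 log2 fold changes of the late fast kept their side of the threshold, 73 were no longer called, 58 were called in addition and 1 called value was on the other side of 0. Direction was counted only for values called in either fit, and values called in neither also changed sign in places. In the daytime fast 2333 of 2373 kept their side, 18 were no longer called and 22 were called in addition. The exception in direction among called values was Clock in iBAT in the late fast, at 0.09 with length offsets against -0.69. In the difference between non-nervous and nervous organs 38 of 40 values kept their side, and in the level between them 30 of 30. The share of called genes is given here in percent of the genes tested where the count moved by over 1.5 times. The cause was not tested in any of these cases.

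With no filter on low counts, the percent of genes called in the late fast was 6.36 (OB), 8.29 (BRN), 3.21 (CBL) and 0.684 (BST), and pairs of clock gene and organ called in the late fast were 18. Under that open filter, the percent of genes called in the daytime fast was 2.13 (OB), 6.06 (BRN), 1.03 (CBL), 0.438 (BST), 0.00745 (STM) and 0.101 (iBAT), and pairs of clock gene and organ called in the daytime fast were 8. Under that open filter, the percent of genes called in the joint test was 14.2 (OB), 7.000 (BRN), 8.09 (CBL), 2.45 (BST), 15.8 (LIV) and 0.00335 (pgWAT), and pairs of clock gene and organ called in the joint test were 24.

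With lane as a covariate, the percent of genes called in the late fast was 0 (OB), 0 (BRN), 0 (STM), 0.05705 (LIV) and 0 (pgWAT), and pairs of clock gene and organ called in the late fast were 4. Under the lane covariate, the percent of genes called in the daytime fast was 0 (OB), 0.00597 (BRN) and 8.201 (LIV), and the percent of genes called in the joint test was 7.02 (OB), 0 (BRN), 0 (STM) and 2.097 (LIV). Under the lane covariate, pairs of clock gene and organ called in the joint test were 5.

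With 22 h alone as late, the percent of genes called in the late fast was 0.161 (OB), 1.58 (BRN), 4.59 (CBL), 0 (BST), 2.55 (STM), 4.300 (LIV) and 0.0179 (psWAT), and pairs of clock gene and organ called in the late fast were 6.

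With DESeq2, the percent of genes called in the late fast was 7.91 (OB), 14.5 (BRN), 4.68 (CBL), 0.357 (BST), 4.57 (pgWAT) and 0.251 (psWAT), and pairs of clock gene and organ called in the late fast were 17. Under its own normalization, the percent of genes called in the daytime fast was 1.23 (OB), 10.02 (BRN), 0.269 (CBL), 0.0738 (STM), 0.579 (iBAT), 0.0548 (pgWAT) and 0.0538 (psWAT), and pairs of clock gene and organ called in the daytime fast were 4. Under its own normalization, the percent of genes called in the joint test was 9.42 (BRN), 11.1 (CBL), 1.26 (BST), 17.2 (STM), 25.6 (LIV), 3.39 (pgWAT) and 12.3 (psWAT), and pairs of clock gene and organ called in the joint test were 24.

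With the library number series as a covariate, the percent of genes called in the late fast was 0 (BRN), 22.3 (iBAT) and 0 (pgWAT), and pairs of clock gene and organ called in the late fast were 6. Under the series covariate, the percent of genes called in the daytime fast was 0 (BRN) and 0.0965 (iBAT), and pairs of clock gene and organ called in the daytime fast were 0. Under the series covariate, the percent of genes called in the joint test was 0 (BRN) and 5.93 (iBAT).

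With a log2 fold change over 1 required as well, the percent of genes called in the late fast was 0.197 (OB), 1.97 (BRN), 0.131 (CBL), 0 (BST), 7.401 (STM), 1.38 (LIV) and 12.7 (iBAT), and pairs of clock gene and organ called in the late fast were 2. Under that fold threshold, the percent of genes called in the daytime fast was 0.0418 (OB), 0.7105 (BRN), 0 (BST) and 1.27 (LIV), and pairs of clock gene and organ called in the daytime fast were 0.

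With a replicate block, the percent of genes called in the late fast was 7.35 (OB) and 0 (pgWAT), and the percent of genes called in the daytime fast was 0.388 (OB), 1.55 (BRN) and 0.0563 (CBL). Under that block, pairs of clock gene and organ called in the daytime fast were 0, and the percent of genes called in the joint test was 0 (BRN) and 0.197 (BST).

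With 8 h alone as daytime group, the percent of genes called in the daytime fast was 0.0717 (OB), 0 (BRN), 0.00626 (CBL), 0 (BST), 2.18 (LIV) and 0.0276 (iBAT), and pairs of clock gene and organ called in the daytime fast were 0.

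With length offsets, the percent of genes called in the late fast was 3.77 (CBL), 0.0477 (BST) and 0 (pgWAT), and the percent of genes called in the daytime fast was 0 (BRN), 0.0125 (CBL), 0 (BST) and 0.103 (iBAT). Under those offsets, pairs of clock gene and organ called in the daytime fast were 0, and the percent of genes called in the joint test was 7.13 (OB), 0 (BRN) and 0.167 (BST).

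With the excluded libraries put back, the percent of genes called in the late fast was 0 (BRN), and the percent of genes called in the daytime fast was 0 (BRN) and 0.0206 (iBAT). Under that fuller set, pairs of clock gene and organ called in the daytime fast were 0, and the percent of genes called in the joint test was 0.04198 (BRN) and 2.22 (psWAT).

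Without the 4 libraries nearest to another organ, the percent of genes called in the late fast was 0 (BRN) and 0.0435 (pgWAT), and the percent of genes called in the daytime fast was 1.16 (BRN). Under that smaller set, pairs of clock gene and organ called in the daytime fast were 0, and the percent of genes called in the joint test was 0 (BRN). Under that smaller set, clock genes called in the difference between non-nervous and nervous organs were 2.

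Without mouse 3 of 0 h, pairs of clock gene and organ called in the daytime fast were 4, and pairs of clock gene and organ called in the joint test were 19. Under that omission, clock genes called in the difference between non-nervous and nervous organs were 0.

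With 0 h alone as fed, the percent of genes called in the late fast was 1.95 (OB), 11.2 (BRN), 0.344 (CBL) and 20.9 (iBAT).

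With 18 h alone as late, the percent of genes called in the late fast was 15.6 (OB), 0.4896 (BRN), 0.0626 (CBL), 0 (BST), 0 (iBAT) and 0 (pgWAT).

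With 12 h alone as daytime group, the percent of genes called in the daytime fast was 0 (OB), 0.0125 (CBL), 0.00596 (BST) and 0 (iBAT).

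Without 1 library of an organ at a time, the percent of genes called in the late fast ranged from 0.777 to 9.52 (OB), 0 to 32.8 (BRN), 0.459 to 4.05 (CBL), 0 to 0.9898 (BST), 14.3 to 25.5 (STM), 8.26 to 16.3 (LIV), 22.3 to 42.3 (iBAT) and 0 to 6.67 (pgWAT). The pairs of clock gene and organ called in the late fast ranged from 7 to 14. Without 1 library of an organ at a time, the percent of genes called in the daytime fast ranged from 0.00597 to 1.19 (OB), 0 to 7.55 (BRN), 0 to 0.226 (CBL), 0 to 0.395 (BST), 0 to 0.0616 (STM), 9.18 to 20.6 (LIV) and 0 to 0.201 (iBAT). The pairs of clock gene and organ called in the daytime fast ranged from 0 to 4. Without 1 library of an organ at a time, the percent of genes called in the joint test ranged from 6.09 to 21.99 (OB), 0 to 17.3 (BRN), 0.169 to 10.5 (CBL), 0.00596 to 1.304 (BST), 0.701 to 10.7 (STM), 9.12 to 20.7 (LIV), 6.04 to 37.01 (iBAT), 0 to 0.0671 (pgWAT) and 0 to 0.0361 (psWAT). The pairs of clock gene and organ called in the joint test ranged from 8 to 15.

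The 8 h alone, 12 h alone and mouse 3 alternatives were chosen after seeing the data, the last of them from values of the clock genes themselves. Lane could not be fitted in CBL and BST, which ran on 1 lane each. In iBAT 3 of the late libraries had lanes of their own, among them all of 22 h. Lane could therefore not be fitted there beside all the times at once. The fed and daytime libraries and most of 18 h shared lanes, and lane was not tested on those times alone. The sums over organs carry the calls of such organs over unchanged, so that all 4 late pairs given with lane as a covariate are iBAT calls that were not tested against lane, as are 2 of the 5 joint pairs. The library number series was fitted only in organs that hold both. Replicate numbers at different times are different mice, so that the replicate block pairs nothing that was paired in the study. Depth limits the lowest genes: 3 counts in the shallowest library are 0.365 CPM in OB and 0.985 CPM in BRN.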
